A study of Mus musculus with 5 samples.

Results

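The barcodes described here are endothelial cells of the mouse dentate gyrus region that carried RNA of fenestrated or venous vessels. A barcode entered when it had at least 500 UMIs and 300 genes, at least 3 of 8 pan-endothelial genes (Cldn5, Flt1, Pecam1, Ly6c1, Cdh5, Kdr, Egfl7, Ptprb) and at least 2 of 5 subtype genes (Plvap, Vwf, Esm1, Ackr1, Lrg1). It could hold at most 1 of 5 mural or microglial genes (Vtn, Kcnj8, Higd1b, Tmem119, Siglech), and a gene was held when it had a UMI. The members were thus chosen by the detection of these 18 genes. The rule found 283 members, 153 in one library (CFC-14d) and 130 in the other (Random-14d), among 3923 endothelial barcodes, 59960 barcodes past the depth limits and 63342 deposited in both libraries. The whole series holds 95918 barcodes in 5 libraries.

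Both libraries came from wild-type mice, 10 in each group, with cells freed by collagenase, treated with red cell lysis solution and profiled as total RNA in droplets. CFC-14d was taken 14 days after contextual fear conditioning, in which a context is paired with foot shocks. Random-14d was taken 14 days after random foot shocks. The series title ties the study to astrocytes, the cytokine IL-3 and its receptor CSF2RB2 in the decay of fear memory, and each group is 1 library, so no difference between the groups has a replicate check and none was tested. The labels do not say how the 10 mice of a group were combined, nor give sex or age.

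Most brain capillaries form a barrier: tight junctions and a set of transporters replace free passage, and Wnt signalling through beta-catenin maintains that state. Fenestrated capillaries, as in the choroid plexus and the circumventricular organs, lack the barrier and carry pores closed by diaphragms that PLVAP forms. Venules and veins carry VWF and ACKR1, which presents chemokines, and are a main site of leukocyte entry.

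The members were, by their detected genes, mostly fenestrated, while a smaller part held Vwf, Ackr1 or Lrg1, most of these together with Plvap. At least 3 of 10 venous markers outside the rule were detected in 19.6% and 13.8% of members (CFC-14d and Random-14d). In the other endothelial barcodes, which were less deep, the shares were 11.8% and 11.7%. Plvap with Esm1, and no other subtype gene, made up 106 of 153 members in CFC-14d (69.3%) and 100 of 130 in Random-14d (76.9%). Plvap was held by 145 and 123 members, and Esm1, a secreted proteoglycan also called endocan, by 120 and 108. Vwf was held by 19 and 11, Ackr1 by 12 and 7, and Lrg1, a secreted glycoprotein, by 31 and 22. The members without Plvap numbered 8 and 7. No member held all 5 subtype genes, and 133 and 119 held exactly 2.

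Levels of the rule's own genes are given as a description, since they chose the members. Levels are counts per 1000000 UMIs (CPM) over a library's summed members, which hold 860356 UMIs for CFC-14d and 612034 for Random-14d. Plvap stood at 1663 CPM in CFC-14d and 1765 in Random-14d, against 74.8 and 76.3 in the other endothelial barcodes. Esm1 stood at 652 and 756 CPM against 1.78 and 1.25. Vwf stood at 88.3 and 83.3 CPM against 37.3 and 38.0, and Pecam1, an adhesion molecule of endothelial junctions, at 926 and 807 CPM. Kdr and Flt1, both receptors of VEGF, were higher than in the other barcodes, Kdr at 1032 and 1279 CPM against 182 and 194. Cldn5, the main claudin of the blood-brain barrier, was lower at 379 and 324 CPM against 1906 and 2168, although the rule counts it as an endothelial gene.

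Just outside the threshold lay the endothelial barcodes with exactly 1 subtype gene, 315 in CFC-14d and 365 in Random-14d. Those with Plvap alone, 117 and 131, had 673 and 1019 CPM of Plpp3, a lipid phosphatase gene of the fenestrated list, against 2467 and 3090 CPM in the members with exactly 2. Plpp3 is not particular to endothelium here, as barcodes with astrocyte markers had up to 2682 CPM. Endothelial barcodes with Vwf alone, 179 and 220, had 44.6 and 31.8 CPM of Plpp3 and 3724 and 3611 CPM of Cldn5. A further 40 and 36 barcodes met the subtype rule but held 2 or more mural or microglial genes, and their Plpp3 was 980 and 1028 CPM. The other endothelial barcodes therefore include Plvap-positive ones, which brings ratios of genes that differ with Plvap nearer to 0.

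Several technical values differ between the libraries or groups. Members were deeper than the other endothelial barcodes, with median UMIs of 3664 and 3007 against 1911.5 and 1799. The libraries shared 282 barcode sequences, 4 of which belonged to members, and no sequence was a member in both. Ttr, the transthyretin gene that dominates choroid plexus epithelium, made up 12.6% of all UMIs of the CFC-14d members and 9.79% of those of the Random-14d members. Its median per member was only 1.75% and 1.71%, and 18 and 8 members were over 10% Ttr. Haemoglobin transcripts made up 1.29% and 5.19% of the sums, with a highest member of 60.2% and 66.2%. At least 3 of 6 choroid plexus markers were detected in 55 and 36 members and at least 3 of 6 microglia markers in 41 and 32. At least 3 of 6 astrocyte markers were detected in 10 and 10 members, or 6.54% and 7.69%, against 3.25% and 3.28% of the other endothelial barcodes. The part of this RNA in each result was not tested. Values over the 129 and 115 members with at most 10% Ttr and 10% haemoglobin are given beside some of the results. That limit was chosen after the data were seen, and a result given without such a value may depend on this RNA too.

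Outside the genes of the rule, the members were compared with the other endothelial barcodes of the same library. The ratio is the log2 of CPM in members over CPM in the 1690 (CFC-14d) and 1950 (Random-14d) other endothelial barcodes, with 0.5 counts added, and its 95% interval, like every interval here, covers counting error only. Of 7592 genes with at least 100 counts in each library, 5.81% were at least 2-fold higher in both libraries and 2.38% at least 2-fold lower. Since the rule chose these barcodes by related genes, nothing is read from those shares beyond the description. The median ratio of all genes was 0.14 in CFC-14d and 0.23 in Random-14d.

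All 6 fenestrated genes outside the rule were at least 2-fold higher in both libraries, with a median of 3.90 in CFC-14d and 4.37 in Random-14d. Igfbp3, which binds insulin-like growth factors, had 558 counts or 649 CPM (95% interval 596 to 705) in CFC-14d members and 18.1 CPM in the others, a ratio of 5.16 (4.88 to 5.46). In Random-14d it had 461 counts or 753 CPM (686 to 825) against 22.2, a ratio of 5.08 (4.83 to 5.34). The intervals of the 2 libraries overlap for Igfbp3, and the members lie far above the other barcodes in each. Gpihbp1, which carries lipoprotein lipase to the capillary lumen, stood at 221 and 165 CPM against 6.67 and 4.86, with ratios of 5.04 (4.57 to 5.55) and 5.07 (4.54 to 5.66). Plpp3 stood at 2236 and 3171 CPM against 133 and 163, with ratios of 4.08 and 4.28. The remaining 3, Plpp1 (a lipid phosphatase), Cd24a (a small surface glycoprotein whose counts may include reads of related copies) and Exoc3l2 (an exocyst-related protein), had ratios from 3.27 to 4.47.

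Other genes with the highest ratios follow. Col13a1, a transmembrane collagen, stood at 224 and 219 CPM against 8.29 and 9.23 (ratios 4.75 and 4.56). Rbp7, a retinol-binding protein, had ratios of 4.23 and 4.84, Btnl9, a butyrophilin-like protein, 4.65 and 4.42, and Cd300lg, an endothelial mucin-like receptor, 4.47 and 4.37. Genes of secreted signals were among them: Ntf3, the neurotrophin-3 gene, stood at 109 and 127 CPM against 4.15 and 6.24, and Penk, the enkephalin precursor, at 129 and 150 CPM against 5.48 and 6.61. The intervals of both libraries overlap for Ntf3 and for Penk. Car8 (a carbonic anhydrase relative), Ces2e (a carboxylesterase) and Slc43a3 (a transporter of purine bases) had ratios from 4.05 to 4.77.

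The 250 bases before the start of 3 genes high in the members (Esm1 by the choice of the rule) and of Mfsd2a, the low transporter of the next paragraph, are shown as a description. They come from RefSeq on build GRCm38.p6, an older build than the one named in the submitters' processing notes, and 17 of 26 genes looked up (the named genes of this comparison with Plvap and Esm1) had an entry. Positions are chr11:7213924-7214173 on the minus strand, chr10:61979109-61979358 on the minus strand, chr13:113209409-113209658 on the plus strand and chr4:122961189-122961438 on the minus strand, each read 5′ to 3′ along the gene. Capitals mark GGAA, the core that ETS factors bind, on either strand, as letters or as their reverse complement. They also mark TATAAA, the element that the general transcription machinery can bind upstream of a start, on either strand.
Igfbp3: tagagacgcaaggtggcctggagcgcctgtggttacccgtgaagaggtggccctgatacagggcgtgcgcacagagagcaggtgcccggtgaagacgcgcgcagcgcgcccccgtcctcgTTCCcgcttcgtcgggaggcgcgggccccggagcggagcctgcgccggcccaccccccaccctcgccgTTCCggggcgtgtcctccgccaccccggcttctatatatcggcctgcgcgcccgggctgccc
Col13a1: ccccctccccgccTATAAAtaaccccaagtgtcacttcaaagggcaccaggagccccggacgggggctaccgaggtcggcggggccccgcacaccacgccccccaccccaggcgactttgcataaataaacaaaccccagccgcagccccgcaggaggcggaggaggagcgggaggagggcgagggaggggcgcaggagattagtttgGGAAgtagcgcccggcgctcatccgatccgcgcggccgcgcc
Esm1: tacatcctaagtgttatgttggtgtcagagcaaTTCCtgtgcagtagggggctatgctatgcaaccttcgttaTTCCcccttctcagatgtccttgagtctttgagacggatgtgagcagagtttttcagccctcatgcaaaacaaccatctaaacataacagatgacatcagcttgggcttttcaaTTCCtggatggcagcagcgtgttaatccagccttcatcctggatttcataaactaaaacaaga
Mfsd2a: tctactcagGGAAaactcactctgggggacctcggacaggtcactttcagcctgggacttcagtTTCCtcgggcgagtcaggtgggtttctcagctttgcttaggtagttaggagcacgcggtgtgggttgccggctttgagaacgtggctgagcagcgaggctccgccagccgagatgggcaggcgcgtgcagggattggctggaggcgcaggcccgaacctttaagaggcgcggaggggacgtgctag
The ETS core occurred 2 times before Igfbp3, 1 time before Col13a1, 3 times before Esm1 and 2 times before Mfsd2a, and 93.4% of 32851 promoters of this length hold it. TATAAA, searched by its exact letters only, occurred among these 4 only before Col13a1, 237 bases from the start, and 12.4% of all promoters hold it. Whether any of these matches acts was not tested. The letters ATCAAAG, bound by TCF or LEF factors and searched on both strands, were in none of the 4 windows and in 3.21% of all promoters.

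Genes of the blood-brain barrier were lower. All 12 capillary and barrier genes outside the rule were lower in both libraries, where 25.4% of all genes were, and 9 were at least 2-fold lower. Their median ratio was -1.95 in CFC-14d and -2.02 in Random-14d. Mfsd2a, which brings docosahexaenoic acid into the brain as lysolipid, had 3 counts in the members of each library, 3.49 and 4.90 CPM against 71.1 and 81.8, with ratios of -4.13 (-6.63 to -2.79) and -3.84 (-6.34 to -2.51). Spock2, a secreted proteoglycan, stood at 58.1 and 50.7 CPM against 624 and 623, and Slco1a4, an organic anion transporter, at 109 and 129 CPM against 622 and 667. Tfrc, the transferrin receptor, had ratios of -2.43 and -3.46. Abcg2, an efflux pump, was the exception in size, at 341 and 363 CPM against 342 and 377, and Itm2a had ratios of -0.83 and -0.88.

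Detection was also compared at matched depth, with each barcode thinned to 1000 UMIs. Plpp3 was then seen in 80.8% (73.6 to 86.7) of 151 members in CFC-14d and 88.3% (81.4 to 93.3) of 128 in Random-14d, against 10.6% and 11.1% of other endothelial barcodes and 4.795% and 4.63% of barcodes with microglia markers, a class that should lack most of these genes. Unthinned, the members' shares were 87.6% and 93.8%. Spock2 was seen in 3.31% and 6.25% of members against 50.5% and 56.0% of the others. Its shares in barcodes with microglia markers were 1.45% and 0.674%. Thinning left out 2 and 2 members and 244 and 388 other endothelial barcodes that had fewer UMIs.

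Each barcode could also be placed by both gene groups at once. The summed level of the 6 fenestrated genes exceeded that of the 12 barrier genes in 131 of 145 members with Plvap in CFC-14d and 116 of 123 in Random-14d. It did so in 0 of 8 and 0 of 7 members without Plvap and in 6.39% and 6.26% of other endothelial barcodes. Among members with Plvap the median fenestrated level was 72.3 and 91.5 UMIs per 10000, and the median barrier level 10.0 in both.

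**Figure D1:**
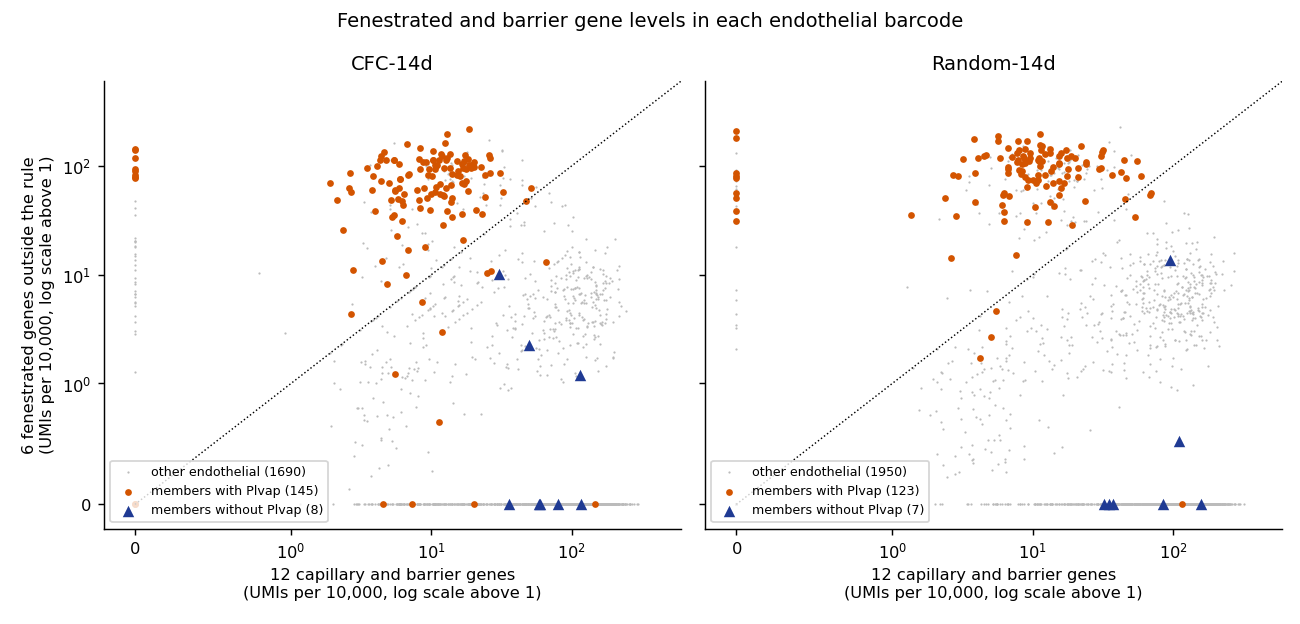
Summed UMIs per 10000 of 6 fenestrated genes outside the rule (vertical axis) and of 12 capillary and barrier genes (horizontal axis) in each endothelial barcode, 1 panel per library, both axes linear below 1 and logarithmic above; the dotted line marks equal levels. Most members with Plvap (orange) lie above the line, 131 of 145 and 116 of 123, and every member without Plvap (blue triangles) lies below it.

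Other genes with the lowest ratios included enzymes and receptors. Ddc, which makes dopamine and serotonin from their precursors, had 2 and 4 counts in the members, 2.32 and 6.54 CPM against 66.5 and 87.8. Lrp8, a reelin and apolipoprotein E receptor, had 6 counts in CFC-14d (6.97 CPM against 63.1) and 0 in Random-14d, where the interval of its ratio ended at -3.45. Rad54b, a DNA repair protein, had 0 and 2 counts, and the interval of its ratio in CFC-14d ended at -2.87. Slc19a3, a thiamine transporter, Slc1a1, a glutamate transporter, Car5a, a mitochondrial carbonic anhydrase, and Cdkn2b, an inhibitor of the cell cycle, had 9 counts or fewer in each library's members and ratios from -4.49 to -2.46. Lrrn3 and Lmntd1 had 3 counts or fewer.

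Genes of the Wnt and beta-catenin list, a pathway that maintains the barrier, went both ways. Of 16 measured genes, 10 were lower in both libraries, where 25.4% of all genes were, and 7 at least 2-fold, where 2.38% were. Another 4 were higher in both, where 51.4% of all genes were, and 2 at least 2-fold, where 5.81% were. Among the lowest were targets and nuclear partners of the pathway: Apcdd1, an inhibitor induced by it, at 13.9 and 18.0 CPM against 126 and 135, Lef1, a partner of beta-catenin, at 44.2 and 65.4 CPM against 232 and 230, and Foxq1, a transcription factor, with ratios of -1.96 and -3.18. Nkd1, a feedback inhibitor, had ratios of -1.91 and -1.99. The highest were 2 receptor components: Tspan12 stood at 67.4 and 105 CPM against 14.7 and 14.7, and Fzd4, the Norrin receptor that TSPAN12 assists, at 133 and 176 CPM against 53.5 and 49.5. Lrp5, a co-receptor, was also higher, at 40.7 and 26.1 CPM against 17.2 and 18.1, and the receptor Fzd6 was lower, at 34.9 and 37.6 CPM against 78.8 and 69.2. Ctnnb1, beta-catenin itself, had ratios of 0.49 and 0.33. The list's median was -1.23 and -0.79.

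Receptors of VEGF and genes of vesicles and matrix were mostly higher. Nrp1, a co-receptor of VEGF and semaphorins, stood at 1448 and 1719 CPM against 153 and 164 (ratios 3.24 and 3.39), and Nrp2 and Flt4 had ratios from 1.53 to 2.34. Of 10 genes of caveolae and transcytosis 8 were higher in both libraries, where 51.4% of all genes were, led by Ehd4, a membrane-shaping ATPase, at 740 and 1016 CPM against 93.02 and 93.7, and by Cavin3 with ratios of 1.70 and 1.99. Of 13 basement membrane and matrix genes 12 were higher in both. Hspg2, the perlecan gene, stood at 314 and 368 CPM against 43.0 and 43.7, Nid1 (nidogen) had ratios of 2.44 and 2.37, and Col4a1 and Col4a2 from 1.82 to 2.25. Fn1, the fibronectin gene, was the lower member at 22.1 and 40.8 CPM against 197 and 194. Among junction genes, Jam3, an adhesion molecule, had ratios of 3.25 and 3.80 and Lsr, a tricellular junction protein, -1.62 and -2.85, and the 9 measured had 3 higher and 4 lower in both. Of 14 BMP and TGF-beta genes 12 were higher in both, with Eng (endoglin) at 1.46 and 1.25, Smad6 at 2.12 and 0.84 and Smad7 at 1.34 and 1.23, the last pair inhibitors of the pathway.

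Genes of antigen presentation were split by class. All 10 measured genes of MHC class I presentation were higher in both libraries, where 51.4% of all genes were. Of these 8 were at least 2-fold higher in both, where 5.81% of all genes were, and the medians were 1.33 and 1.59. H2-D1, a classical class I chain, stood at 1315 and 1270 CPM against 503 and 366, and Psmb9, an immunoproteasome subunit, at 188 and 175 CPM against 61.9 and 49.8. H2-T23 had ratios of 1.70 and 1.66 and B2m, the shared light chain, 0.98 and 1.33. The H2 genes resemble each other, so reads may be split among them. Of 6 MHC class II genes 5 were lower in both, where 25.4% of all genes were, with Cd74, the invariant chain, at 62.8 and 60.5 CPM against 113 and 83.3. All 8 genes of the NF-kB list were higher in both, beside the same 51.4% of all genes. They were led by Tnfaip2 at 75.6 and 81.7 CPM against 7.26 and 7.36. Socs3, a feedback inhibitor of cytokine signalling, had ratios of 2.41 and 2.12.

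Several stress and activation lists were higher in the summed counts, and their medians were smaller once Ttr- or haemoglobin-rich barcodes were left out. Beside the 51.4% of all genes higher in both libraries, immediate early genes were so in 14 of 16 (medians 0.54 and 0.73), led by Nr4a1, a nuclear receptor, at 230 and 292 CPM against 80.9 and 63.5, and by Egr1 at 861 and 1044 CPM against 418 and 360. All 9 glucocorticoid response genes were higher in both (medians 0.79 and 1.02), with Tsc22d3, a glucocorticoid-induced leucine zipper, at 457 and 350 CPM against 179 and 131. Interferon response genes were higher in 14 of 21 (medians 0.33 and 0.59, against 0.14 and 0.23 for all genes), with Iigp1, an interferon-induced GTPase, at 128 and 85.0 CPM against 21.8 and 19.2. Without the barcodes over 10% Ttr or haemoglobin in either set, the list median of the mean ratio over both libraries went from 0.63 to 0.02 for immediate early genes, from 0.85 to 0.27 for glucocorticoid response, from 0.46 to -0.09 for interferon response, from 0.92 to 0.26 for BMP and TGF-beta and from 0.94 to 0.32 for matrix. It went from 1.59 to 0.92 for MHC class I, from 1.39 to 0.68 for NF-kB and from 0.99 to 0.45 for caveolae, while the median of all genes moved from 0.18 to -0.01. It went from 4.14 to 3.48 for the fenestrated list, from -2.05 to -2.94 for the barrier list, from -1.08 to -1.81 for the Wnt list and from -0.51 to -1.49 for MHC class II.

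**Figure D2:**
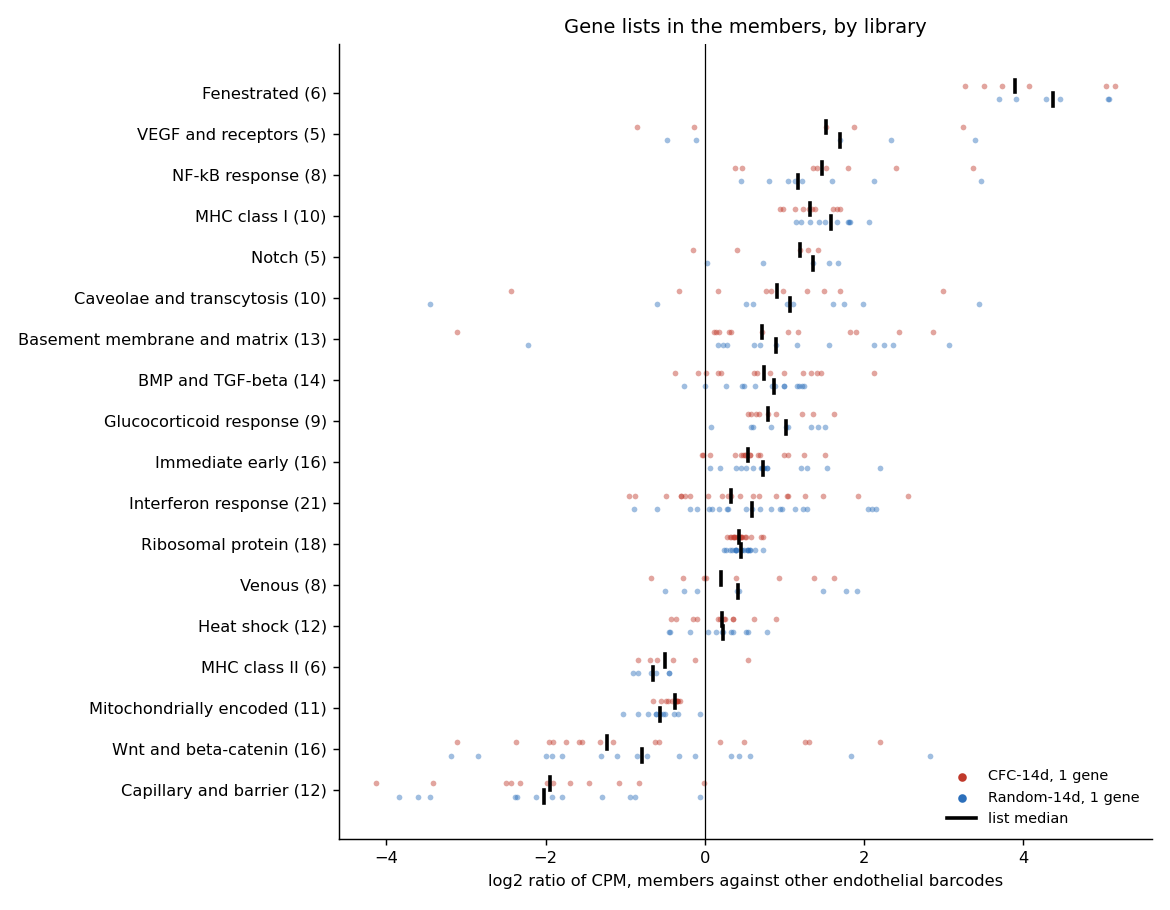
Log2 ratio of CPM in members over other endothelial barcodes for each gene (points, red for CFC-14d and blue for Random-14d) of 18 gene lists without the rule's genes, with the list median as a black bar and the number of measured genes in brackets. The fenestrated list lies highest (medians 3.90 and 4.37) and the capillary and barrier list lowest (-1.95 and -2.02).

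Venous and arterial lists did not stand apart as a whole in the summed counts of all members. Of 8 measured venous genes, 4 were higher in both libraries and 2 at least 2-fold, with medians of 0.21 and 0.42, near the median of all genes. The venous median of the mean ratio over both libraries was 0.31. Without the Ttr- or haemoglobin-rich barcodes it was 0.73, further from the median of all genes, then -0.01. The range over its genes was then wide, from -1.25 to 1.21. Ephb4, an ephrin receptor of veins, stood at 51.1 and 52.3 CPM against 16.7 and 14.1, and Il1r1, the interleukin-1 receptor, at 86.0 and 99.7 CPM against 33.5 and 29.3. Nr2f2, the transcription factor that sets venous identity, stood at 20.9 and 16.3 CPM against 21.2 and 18.3. Of 5 arterial genes 3 were lower in both libraries and 1 was higher. Efnb2, an ephrin of arteries and of growing vessels, was the higher, with ratios of 2.40 and 2.86.

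The members were split by Plvap, Ackr1 and Lrg1 into 3 sets. Plvap without Ackr1 or Lrg1 was held by 114 and 102 members, Plvap with either by 31 and 21, and no Plvap by 8 and 7. The last set rests on 43816 and 28388 UMIs, so its values are coarse. A single barcode held 24891 of these in CFC-14d and another 19158 in Random-14d. The summed levels of this set therefore lean on 1 barcode per library, and their intervals do not cover the spread between barcodes. Of 932 genes with at least 100 counts in each library, 11.6% were at least 2-fold higher with Plvap in both libraries and 3.76% at least 2-fold lower, and since Plvap made the sets these shares are a description.

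The members without Plvap had higher levels of venous and barrier genes outside the rule than the members with Plvap. Slc38a5, an amino acid transporter of veins and venous capillaries, stood at 639 and 705 CPM in them, against 6.57 and 4.01 in the members with Plvap but neither Ackr1 nor Lrg1, and Vcam1, an adhesion molecule for leukocytes, at 685 and 1162 CPM against 26.3 and 32.1. Nr2f2 stood at 91.3 and 247 CPM, from 4 and 7 counts. The venous list summed to 3789 and 4896 CPM in the members without Plvap, against 335 and 285, and the barrier list to 9540 and 9828 CPM against 1032 and 1071. The intervals of the sets do not overlap for Slc38a5 and Vcam1 in either library, and they do for Nr2f2 in CFC-14d, whose lower bound is 24.9 CPM. Vwf and Cldn5 are genes of the rule and are a description: a member without Plvap had to hold at least 2 of the other 4 subtype genes, so a high Vwf (1255 and 1515 CPM) follows from the choice, and Cldn5 stood at 5204 and 4685 CPM against 95.3 and 106.

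Further genes separated these sets in both libraries. Ptn, the growth factor pleiotrophin, stood at 4884 and 5707 CPM in members without Plvap and at 138 and 85.7 in all members with it, with a ratio of -5.14 (-5.48 to -4.81) and -6.05 (-6.55 to -5.59). Bsg, basigin, a partner of lactate transporters that marks barrier endothelium, stood at 10864 and 9793 CPM against 1946 and 1467. Itm2a, Tmsb10 (thymosin beta 10), Arl4a, St3gal6, Tjp1 (the scaffold ZO-1) and Slc6a6 (the taurine transporter) were also higher without Plvap, by ratios from -3.41 to -1.69. In the other direction, Rgcc, a regulator of the cell cycle, stood at 1629 and 2080 CPM with Plvap and had 1 and 0 counts without it. Igfbp3, Rbp7, Cd24a, Tcim, Plpp1, Plpp3 and Hspg2 were likewise high with Plvap and had at most 3 counts without it.

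The members with Plvap and Ackr1 or Lrg1 carried fenestrated genes at levels nearer to those of the other Plvap members than of the members without Plvap. Their Plpp3 was 1933 (1748 to 2131) and 3679 (3283 to 4110) CPM, against 2498 (2374 to 2627) and 3261 (3105 to 3424) in those without either, so it was lower in CFC-14d and the intervals overlap in Random-14d. Igfbp3 was lower in them, at 466 (378 to 569) and 541 (396 to 721) CPM against 758 (690 to 830) and 832 (754 to 916). Rgcc was lower too, at 1197 and 1469 CPM against 1776 and 2184. Esm1 was lower in them, at 192 and 247 CPM against 856 and 887, but it is a gene of the rule, which asks for a partner of Plvap, so this follows from the choice. Their venous list summed to 558 and 811 CPM.

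**Figure D3:**
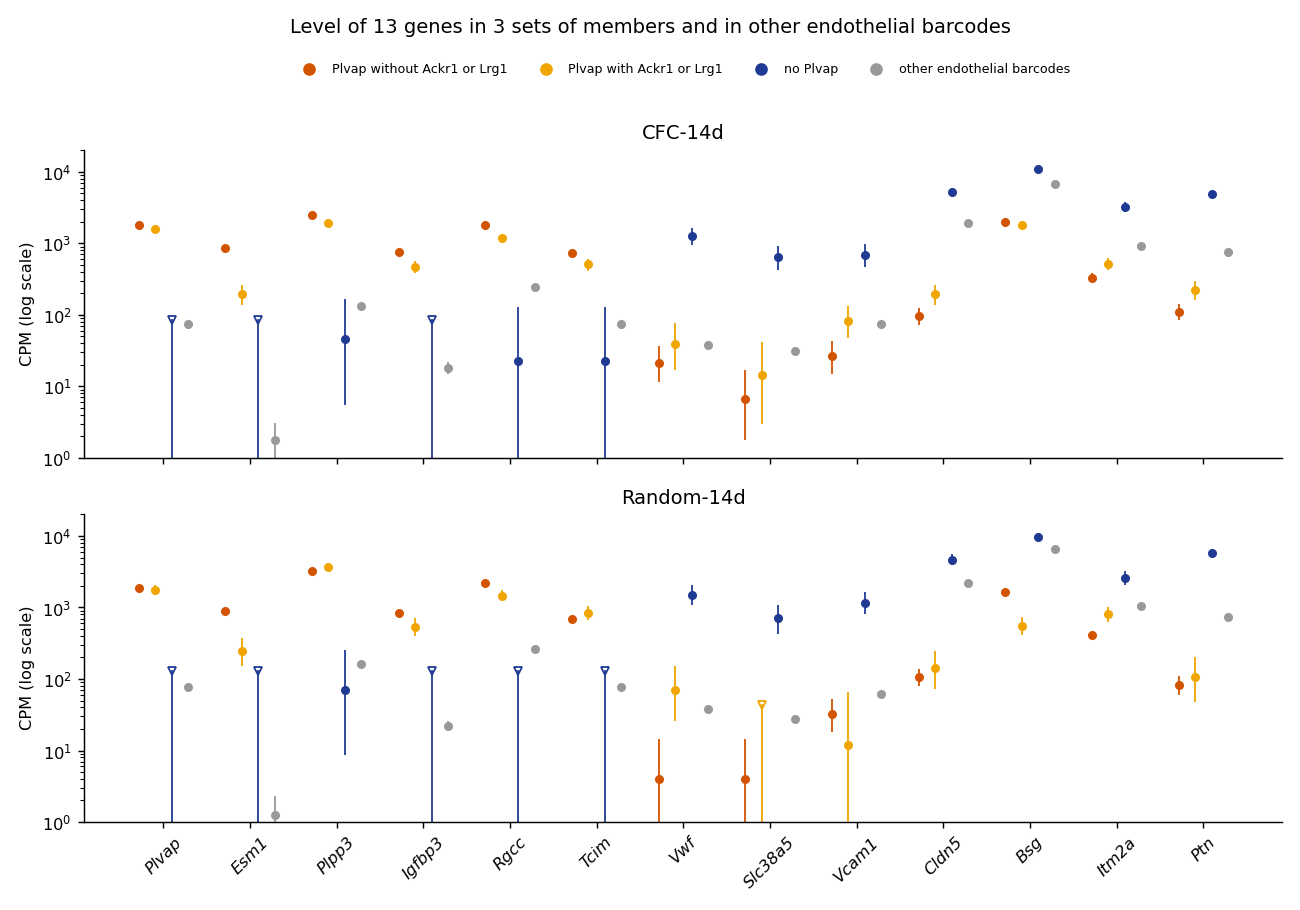
Level in CPM (log axis, 95% counting interval) of 13 genes in 3 sets of members and in other endothelial barcodes, in CFC-14d (top) and Random-14d (bottom); an open triangle marks the upper bound of a gene with no count. Members without Plvap (blue) lack Plpp3, Igfbp3, Rgcc and Tcim at the level of the other member sets; genes of the rule, such as Vwf, Esm1 and Plvap, differ because they chose the members or the sets.

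Members made up 8.30% (exact 95% interval 7.08 to 9.66) of the endothelial barcodes in CFC-14d and 6.25% (5.25 to 7.38) in Random-14d. At 1000 UMIs per barcode the shares were 5.79% (4.65 to 7.12) and 4.68% (3.71 to 5.80). The intervals overlap at either depth. Without barcodes over 10% Ttr or haemoglobin the shares were 9.63% (8.11 to 11.34) and 6.85% (5.69 to 8.17), with intervals that overlap narrowly. Of all barcodes past the depth limits, members were 0.491% and 0.451%. Fewer cells of a type and poorer recovery of that type in the cell suspension cannot be told apart in these shares, and the groups have 1 library each.

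Within the members, the conditions were compared over all genes with enough counts. Of 2468 genes with at least 100 counts, 89 (3.61%) were at least 1.5-fold higher in CFC-14d and 51 (2.07%) at least 1.5-fold lower, and the median ratio was 0.02. Of the same genes, 51.9% were higher and 48.1% lower by any amount. Without the members over 10% Ttr or haemoglobin, 78 of 1820 measured genes (4.29%) were 1.5-fold apart in either direction instead of 140 of 2468.

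The largest ratios towards CFC-14d were those of Sulf1, Msx1 and Cers4. Sulf1, which removes sulfate from heparan sulfate, had 101 counts or 117 CPM (95.6 to 143) in CFC-14d and 27 counts or 44.1 CPM (29.1 to 64.2) in Random-14d, a log2 ratio of 1.39 (0.79 to 2.08). The intervals do not overlap, and 2 barcodes held 34.7% of the counts in CFC-14d. Msx1, a homeobox factor, had 125 and 36 counts, with a ratio of 1.29 (0.76 to 1.88), and 2 barcodes held 45.6% of those in CFC-14d. Without the members over 10% Ttr or haemoglobin Msx1 had 10 and 9 counts, and Kcnk1, a potassium channel, had 7 and 6 counts where all members had 99 and 37. Among the marker classes, Sulf1, Msx1, Kcnk1, Cox6b2, Erlec1, Cox20 and Pgk1 were highest in barcodes with choroid plexus epithelial markers, Msx1 at 303 CPM.

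These ratios moved to different degrees when those members were left out. Sulf1 then had 32 and 12 counts, and its ratio was smaller, with an interval from 0.04 to 2.13. H2-Q4, a non-classical MHC class I gene, had 139 and 53 counts or 162 and 86.6 CPM, with a ratio of 0.89 (0.43 to 1.38), and 0.77 (0.28 to 1.30) without them. In the other endothelial barcodes H2-Q4 had a ratio of 0.74 (0.51 to 0.99). Herpud1, a gene of the unfolded protein response, had ratios of 0.88 (0.31 to 1.51) and 0.78, Nhsl2 0.93 and 0.94, Erlec1, an endoplasmic reticulum lectin, 0.92 and 0.94, and Tmem33 0.86 and 0.99. Others were smaller: Cers4, a ceramide synthase, went from 1.11 to 0.57, Cox20 from 0.88 to 0.56, Pgk1, a glycolytic kinase, from 0.86 to 0.35, and Cox6b2, a subunit of cytochrome oxidase, changed sign from 0.95 to -0.50.

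Towards Random-14d the largest ratios were those of Hypk and Rsad2. Hypk, a partner of the N-terminal acetyltransferase, had 43 counts or 50.0 CPM (36.2 to 67.3) in CFC-14d and 67 counts or 109 CPM (84.8 to 139) in Random-14d, a ratio of -1.13 (-1.72 to -0.56). Rsad2, the antiviral enzyme viperin, had 78 counts or 90.7 CPM (71.7 to 113) and 118 counts or 193 CPM (160 to 231), a ratio of -1.09 (-1.52 to -0.66), from 43 and 56 barcodes. The intervals do not overlap for either gene. Rsad2 went the other way in the other endothelial barcodes, at 57.0 and 46.7 CPM with a ratio of 0.29 (0.08 to 0.50). Rbp7 had 382 and 452 counts or 444 and 739 CPM, a ratio of -0.73 (-0.93 to -0.53). Ulk2, an autophagy kinase, Cfl2, an actin-severing cofilin, Plscr4, a phospholipid scramblase, Smap1, Riok3, P4ha1, a collagen prolyl hydroxylase, Atg4a, an autophagy protease, Exoc3l2 and Hipk1 had ratios from -0.93 to -0.72. Without the members over 10% Ttr or haemoglobin, each of these 12 genes was still lower in CFC-14d, with ratios from -1.01 to -0.62, and the intervals of P4ha1 and Hipk1 then held 0.

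**Figure D4:**
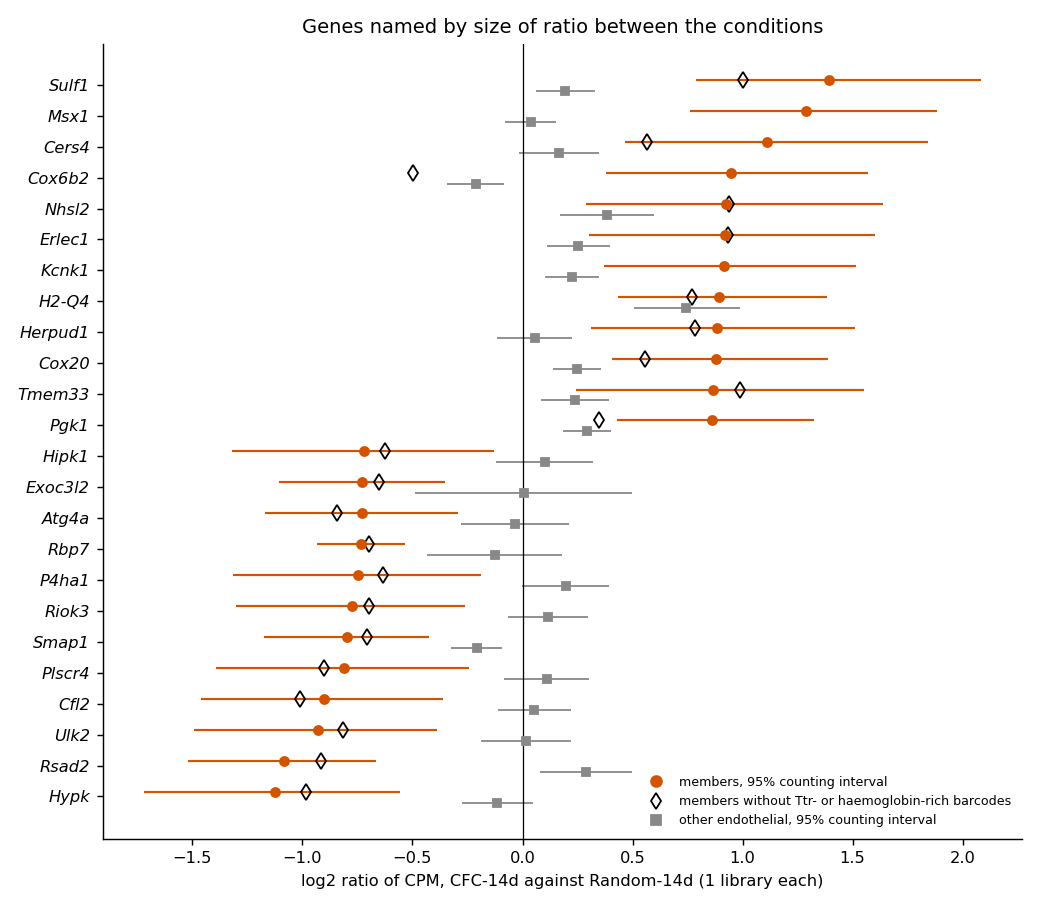
Log2 ratio of CPM in CFC-14d over Random-14d, with 95% counting interval, for the 12 genes highest and the 12 lowest by the naming rule, in members (orange) and other endothelial barcodes (grey); diamonds give members without barcodes over 10% Ttr or haemoglobin and are missing for Msx1 and Kcnk1, which then had under 20 counts. The 12 lower genes keep their sign without those barcodes, and Cox6b2 changes from 0.95 to -0.50.

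The fenestrated genes were mostly lower in CFC-14d. Of the 6 outside the rule 5 were lower, where 48.1% of all genes were. Their median was -0.49, against -0.11 for the same genes in the other endothelial barcodes. Plpp3 had 1924 and 1941 counts, or 2236 (2137 to 2338) and 3171 (3032 to 3316) CPM, a ratio of -0.50 (-0.60 to -0.41). Plpp1 had a ratio of -0.48 (-0.59 to -0.36), Cd24a -0.57 (-0.78 to -0.36), Exoc3l2 -0.73 (-1.10 to -0.35) and Igfbp3 -0.22 (-0.40 to -0.03). Gpihbp1 went the other way, at 221 and 165 CPM with a ratio of 0.42 (0.06 to 0.78). The list median was -0.41 without the Ttr- or haemoglobin-rich members, and the interval of Igfbp3 then held 0 (-0.35 to 0.02).

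Other groups had smaller medians, and their counts stand beside the 51.9% of all genes that were higher in CFC-14d. All 9 measured glycolysis genes were higher in CFC-14d with a median of 0.35, led by Pgk1 at 0.86 and Tpi1 at 0.49. The median of the same genes was 0.24 in the other endothelial barcodes. The median in members was 0.10 without the Ttr- or haemoglobin-rich members. Of 5 glucocorticoid response genes 4 were higher: Sgk1, a kinase, at 399 and 261 CPM (ratio 0.61, 0.33 to 0.89), Klf9 at 0.60, Tsc22d3 at 0.38 and Cdkn1a at 0.26, while Nr3c1, the glucocorticoid receptor, was at -0.33. The same 4 had ratios from 0.32 to 0.45 in the other endothelial barcodes. Of 7 interferon response genes 6 were higher, with Iigp1 at 128 and 85.0 CPM (ratio 0.58, 0.10 to 1.09), and Rsad2 was the lower. Socs3 of the NF-kB list had a ratio of 0.67 (0.32 to 1.03).

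Beside the 48.1% of all genes that were lower in CFC-14d, immediate early genes were so in 13 of 16, with a median of -0.12. Their median was near 0 (0.02) in the other endothelial barcodes. Jund, a part of the AP-1 factor, had a ratio of -0.37 (-0.54 to -0.20), Fos -0.35 (-0.46 to -0.25), Nr4a1 -0.35 (-0.64 to -0.05) and Fosb -0.33 (-0.65 to -0.00). Without the Ttr- or haemoglobin-rich members the list median was -0.06, and the intervals of Nr4a1 (-0.61 to 0.01) and Fosb (-0.64 to 0.04) held 0. When members with any mural or microglial gene were left out the list median turned to 0.13. All 5 leukocyte adhesion genes measured, of 11 listed, were lower, with a median of -0.25, and the intervals of Icam2 and Vcam1 held 0. Cd34, a sialomucin, stood at 236 and 343 CPM with a ratio of -0.54 (-0.83 to -0.25), and its relative Podxl had -0.25 (-0.46 to -0.04). In matrix genes 7 of 9 were lower, with a median of -0.23. The H2-K1, H2-D1 and B2m genes of class I presentation had ratios of -0.01, 0.05 and -0.05 in the members and 0.47, 0.46 and 0.29 in the other endothelial barcodes. Hspa1a, a heat shock gene, had 66 and 91 counts and a ratio of -0.95 (-1.43 to -0.48).

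Smooth muscle transcripts differed too. Acta2, smooth muscle actin, had 243 counts in CFC-14d members and 0 in Random-14d, and 239 of the 243 came from 2 barcodes. Tagln had 115 and 1 counts, with 113 from 2 barcodes. The 5 smooth muscle markers summed to 535 and 14.7 CPM in the members.

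The receptor named in the series title was near the limit of detection in these cells. Csf2rb2 had 2 counts in CFC-14d members and 1 in Random-14d, or 2.32 and 1.63 CPM, where 3 counts, taken as the floor, are 3.49 and 4.90 CPM. Csf2rb, the shared beta chain, had 5 and 2 counts. Il3ra, the alpha chain of the IL-3 receptor, had 14 and 11 counts or 16.3 and 18.0 CPM, and stood at 4.74 and 3.74 CPM in endothelial barcodes outside the rule. Il3 itself had no count in members or other endothelial barcodes. Barcodes with microglia markers had 9.82 and 10.0 CPM of Csf2rb2 in CFC-14d and Random-14d.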

How the data were processed

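The deposited matrices hold UMI counts of each gene in each barcode, and the software named per the file headers is Cell Ranger 8.0.1. The authors deposited these counts without normalization. GRCm39, mm39 and Seurat 5.4.0 are listed in the submitters' processing notes. No annotation release is named in the sources used here. The counts of a library's members were summed and divided by their total to give CPM, with exact Poisson intervals. Shares have Clopper-Pearson intervals. Log2 ratios add 0.5 counts and have exact conditional binomial intervals. All intervals are at 95% and cover counting error only. With 1 library per group no test was run. CFC-14d was compared with Random-14d over 2468 genes with at least 100 counts, and members with other endothelial barcodes over 7592 genes with at least 100 counts in each library.

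Named genes are up to 12 with the highest and 12 with the lowest ratios past 1.5-fold between conditions, or 2-fold in both libraries against other endothelial barcodes. Their interval between conditions did not hold 0, and they excluded unnamed, mitochondrial, ribosomal, haemoglobin and sex-linked genes. Their CPM in members reached 25% of the level of the highest other marker class. For genes lower in members than in other endothelial barcodes, this limit was applied to the CPM of those other barcodes. Up to 8 were named each way for the split by Plvap, and up to 4 each way in each list. Gene lists leave out the 18 genes of the rule. Members, lists and tests were chosen with earlier results of these data known. Doublets were not removed in the reported values. An alternative left out the 8% of barcodes with the highest simulated-doublet score in each library. Scripts used Python 3.11.15, numpy 2.4.6, scipy 1.17.1, pandas 2.3.3 and scikit-learn 1.9.0, and the ratio and its interval were tested on simulated data. Alternatives in barcode limits, scaling and count minimum are given at the end. A result withheld for evaluation is not reported here.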

Additional observations from a re-analysis of the deposited data

Results flagged for a closer look

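Genes named between conditions, genes of the lists and some genes picked by hand were searched, not all 2468 measured genes. Among those searched, 7 had ratios of CFC-14d to Random-14d with opposite signs in members and in other endothelial barcodes. Both 95% counting intervals of these 7 were away from 0, and the share over all genes was not counted. Each difference rests on 1 library per group and was not tested. Egr1 lies outside the naming rule and is given because of this difference. Rsad2 had a log2 ratio of -1.09 in members and 0.29 in the others. Cox6b2 had 0.95 and -0.21, and its value in members was -0.50 without barcodes over 10% Ttr or haemoglobin. Cd34 had -0.54 and 0.13, and Podxl -0.25 and 0.31. Among immediate early genes Nr4a1 had -0.35 and 0.35, Egr1 -0.28 and 0.22, and Fosb -0.33 and 0.11, the last with an upper bound of -0.0048 in members and a lower bound of 0.00046 in the others. Without barcodes over 10% Ttr or haemoglobin the intervals of Nr4a1 and Fosb in members held 0. Without members holding a mural or microglial gene, Egr1 was 0.12 and Fosb 0.19 in members, and the intervals of Cd34, Podxl and Cox6b2 held 0, as did those of Cd34 and Podxl in members with Esm1. With equal weight per barcode Nr4a1 was 0.059.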

How the results depend on the processing

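No paired analysis was possible because each group has 1 library and the labels carry no replicate numbers. Differences between conditions rest on 1 library each, so the spread between animals is not measured, and intervals cover counting error only. Among list medians, shares and counts, 443 values under alternatives stayed within a range set around the main value and 41 moved further. That range was the exact interval for a share and 1.5-fold either way for a count of genes. For a list median it ran between ordered values of the list's genes, for short lists from the lowest to the highest. A median could thus change sign within it, so the 443 do not measure stability. Apart from the 443 and the 41, 1 list median changed sign from a main range that excluded 0. Other sign changes were not counted apart, and some of the 41 changed sign, such as the barrier median between conditions, from -0.11 to 0.68. The cause of each change below was not tested, apart from smaller sets of barcodes or genes where these are given.

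The share of members was 5.79% in CFC-14d and 4.68% in Random-14d at 1000 UMIs, 1.09% and 0.529% with at least 3 of 5 subtype genes, 5.65% and 3.70% without barcodes holding 3 markers of another class, and 7.59% in Random-14d with at least 1000 UMIs. Genes 1.5-fold apart between conditions numbered 140 of 2468 measured, or 1479 of 7932 with a minimum of 20 counts, 26 of 709 with 300, 89 of 1478 without mural or microglial genes, 86 of 1976 in members with Esm1 and 78 of 1820 with at most 10% Ttr and haemoglobin, the last 2 alternatives being added after the data were seen.

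Between conditions, members without mural or microglial genes (104 and 93) gave list medians of 0.68 for barrier, 0.75 for NF-kB and 0.13 for immediate early genes. The barrier and immediate early medians thereby changed sign, and Egr1 was at 0.12 and Fosb at 0.19. Members with at least 3 subtype genes (20 and 11) gave -1.38 for fenestrated, -0.35 for immediate early, -0.19 for ribosomal and 0.45 for mitochondrial genes, and turned Cxcl12 to -1.19, Mgp to -1.16, Nhsl2 to -1.24, Sgk1 to -0.073 and Tsc22d3 to -0.66. The limit on Ttr and haemoglobin gave 0.10 for glycolysis and turned Cox6b2 to -0.50. Leaving out barcodes with 3 markers of another class kept only 10 and 2 members and turned Cd24a to 1.04, Egr1 to 0.013, Igfbp3 to 2.50, Jun to 0.61, Plpp1 to 0.15, Plpp3 to 0.21, Podxl to 2.69 and Rbp7 to 2.50. Members without Plvap (8 and 7) turned Fos to 0.63, Jun to 0.10 and Nrp2 to 0.19, and equal weight per barcode turned Nr4a1 to 0.059.

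Against other endothelial barcodes, the limit on Ttr and haemoglobin gave medians of 3.48 for fenestrated, -0.092 for interferon, 0.92 for MHC class I, -1.49 for MHC class II, 0.016 for immediate early, 0.27 for glucocorticoid, 0.27 for ribosomal and -0.81 for mitochondrial genes. Equal weight per barcode gave -3.12 for barrier, 1.06 for MHC class I, 0.40 for immediate early, 0.43 for glucocorticoid, 0.36 for ribosomal and -0.83 for mitochondrial genes. At least 3 subtype genes gave 1.73 for MHC class I and 0.60 for ribosomal genes, and no mural or microglial gene gave -0.96 for MHC class II and -0.22 for cholesterol synthesis. Other barcodes with none of the 5 subtype genes gave 6.04 for fenestrated and 1.70 for MHC class I, and leaving out barcodes with markers of classes other than microglia, choroid plexus and erythroid gave 0.45 for immediate early and -0.64 for mitochondrial genes, both added after the data were seen.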

Other observations

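The rule was also applied to the 3 libraries of nuclei, which enter no comparison: naive wild-type mice (WT-naive), wild-type mice after conditioning (WT-CFC) and Csf2rb2-knockout mice after conditioning (KO-CFC, whose genotype field reads Csf2rb3-KO). It was met by 1 of 41 endothelial nuclei in WT-naive, 1 of 58 in WT-CFC and 2 of 66 in KO-CFC, from 10966, 13209 and 8393 nuclei past the depth limits. These 4 nuclei were deep, with 11056 UMIs in WT-naive, 60782 in WT-CFC and from 25188 to 63356 in KO-CFC. Ttr made up 0.00374% of all UMIs in WT-naive, against 21.2% in CFC-14d and 20.5% in Random-14d.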
